A study of Mus musculus with 6 samples.

Results

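The genes described here are Myc and 47 factors of ribosome assembly, most of them resident in the nucleolus. They were chosen by name from knowledge of the pathway, with earlier results of these data known, and matched by symbol in a table of 24589 genes. All 48 were present and all passed the filter on low values, which left 10866 genes to test. The libraries came from wild-type primary CD8+ T cells of the mouse, lymphocytes that kill infected and tumour cells, which were purified from spleen and lymph nodes of C57BL/6 mice, activated through CD3 and CD28 and cultured for 24 h in Click's medium. One group of 3 libraries received 20 µM of the ruminant fatty acid trans-vaccenic acid (TVA), and the other group of 3 received DMSO, the solvent. Every library therefore comes from activated cells, resting cells were not part of the series, and the labels do not say whether the 3 libraries of a group came from separate mice, so p-values measure the spread between these libraries, which may be technical.

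MYC is a transcription factor that activated T cells induce as they grow, and ribosome biogenesis is among its best known programmes. Ribosomes are assembled in the nucleolus, where RNA polymerase I transcribes ribosomal RNA, small nucleolar RNPs (snoRNPs) guide its methylation and pseudouridylation, and assembly factors fold and trim the RNA into a small (40S) and a large (60S) subunit. T cells that prepare to divide need many new ribosomes, and the nucleolus enlarges soon after activation. The comparison asks whether 24 h of TVA shifted transcript levels of this machinery in cells that already run it, since TVA was studied for its effect on CD8+ T cell proliferation and MYC is a regulator of that growth.

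MYC binds a short DNA element called the E-box. Promoters of the members were therefore read from RefSeq (GRCm38.p6), as the window from 250 bases before to 50 bases after the first listed start site, and searched for CACGTG, which reads the same on both strands. A window was found for 41 of the 48 members, and 9 of them (22%) held the element, against 918 of 8469 windows (10.8%) of all genes tested that had one and 1957 of 27025 windows (7.24%) of all genes listed. These were the windows of Rrn3, Utp18, Utp20, Wdr43, Imp4, Ltv1, Tsr1, Pes1 and Nop2. The windows of Rrn3, Utp18 and Nop2 are shown because they stand for the successive steps of the pathway, from RNA polymerase I initiation (Rrn3, the only window with a pair of E-boxes) through the small subunit (Utp18) to the large subunit (Nop2), with the E-box in capitals.
Rrn3, chr16:13780449-13780748, plus strand: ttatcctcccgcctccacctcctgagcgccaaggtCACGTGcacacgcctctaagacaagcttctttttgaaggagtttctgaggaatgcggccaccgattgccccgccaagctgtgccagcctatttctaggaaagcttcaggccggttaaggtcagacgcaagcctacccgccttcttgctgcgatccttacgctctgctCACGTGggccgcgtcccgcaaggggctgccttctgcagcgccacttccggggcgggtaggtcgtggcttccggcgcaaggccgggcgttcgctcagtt
Utp18, chr11:93885717-93886016, minus strand: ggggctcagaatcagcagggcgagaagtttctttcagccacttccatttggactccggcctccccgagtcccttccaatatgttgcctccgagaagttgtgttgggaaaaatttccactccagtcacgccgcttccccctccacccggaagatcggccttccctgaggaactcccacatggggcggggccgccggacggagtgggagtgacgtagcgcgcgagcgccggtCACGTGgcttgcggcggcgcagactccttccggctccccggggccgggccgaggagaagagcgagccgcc
Nop2, chr6:125131633-125131932, plus strand: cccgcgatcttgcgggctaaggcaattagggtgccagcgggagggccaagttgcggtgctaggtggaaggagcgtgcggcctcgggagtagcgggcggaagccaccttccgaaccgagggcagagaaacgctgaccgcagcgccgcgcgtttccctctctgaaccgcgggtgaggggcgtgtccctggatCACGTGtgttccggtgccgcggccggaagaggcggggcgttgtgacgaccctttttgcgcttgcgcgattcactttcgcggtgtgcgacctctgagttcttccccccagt
Counted from the start site, the motif began at positions -215 and -48 in the Rrn3 window, at -20 in that of Utp18 and at -60 in that of Nop2. A motif match describes the letters of the window and is no evidence that MYC was bound there.

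Levels are given as TPM, which are scaled to transcript length and to a common total in each library and can be compared between genes. Depth is not known from TPM, so no counting interval is given. Listed markers of CD8 T cells, some of them general T cell genes, were abundant. Their summed level (6 of 7 listed found) was 1842 to 1995 TPM under DMSO and 2094 to 2123 TPM under TVA. Cd8a and Cd8b1 had means of 299 and 315 TPM over the 6 libraries. Of the 6 tested, only Cd3g, a subunit of the T cell receptor complex, passed, higher with TVA (log2 change 0.28, limma adjusted p 0.0063). Cd8b1 and Lck had changes of -0.03 each, and the others were positive. CD4 T cell markers were low by comparison, summing to 8.72 to 11.6 TPM over all 6 libraries. The sum of the myeloid markers went from 57.0 to 65.5 TPM under DMSO to 74.5 to 78.1 TPM under TVA. Lyz2 and Tyrobp passed the threshold among 6 tested, and Lyz2 had the largest move in TPM, with means of 30.3 under DMSO and 39.7 under TVA. Fcer1g, the only tested gene of the list with a negative change, had -0.05 with overlapping groups. NK cell markers went from 30.0 to 33.2 TPM under DMSO to 44.1 to 48.2 TPM under TVA, with Eomes, which CD8 T cells also express, and Tyrobp, also in the myeloid list, the 2 tested and both higher; the defining NK cell marker Ncr1 stayed at 0.09 to 0.43 TPM. Red cell markers overlapped in their sum, at 37.9 to 61.4 TPM under DMSO and 48.6 to 58.7 TPM under TVA, with Hbb-bt lower among 4 tested. The part of these markers in the results below was not tested. In bulk RNA, fewer cells of a type and less RNA per cell cannot be told apart. Among the DMSO libraries, replicate 2 lay closer to the TVA libraries than the other DMSO libraries did, so values without it are given for some genes. It was singled out from these same values, and leaving out the control nearest to treatment tends to widen differences. P-values from that fit are therefore no separate support.

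**Figure D1:**
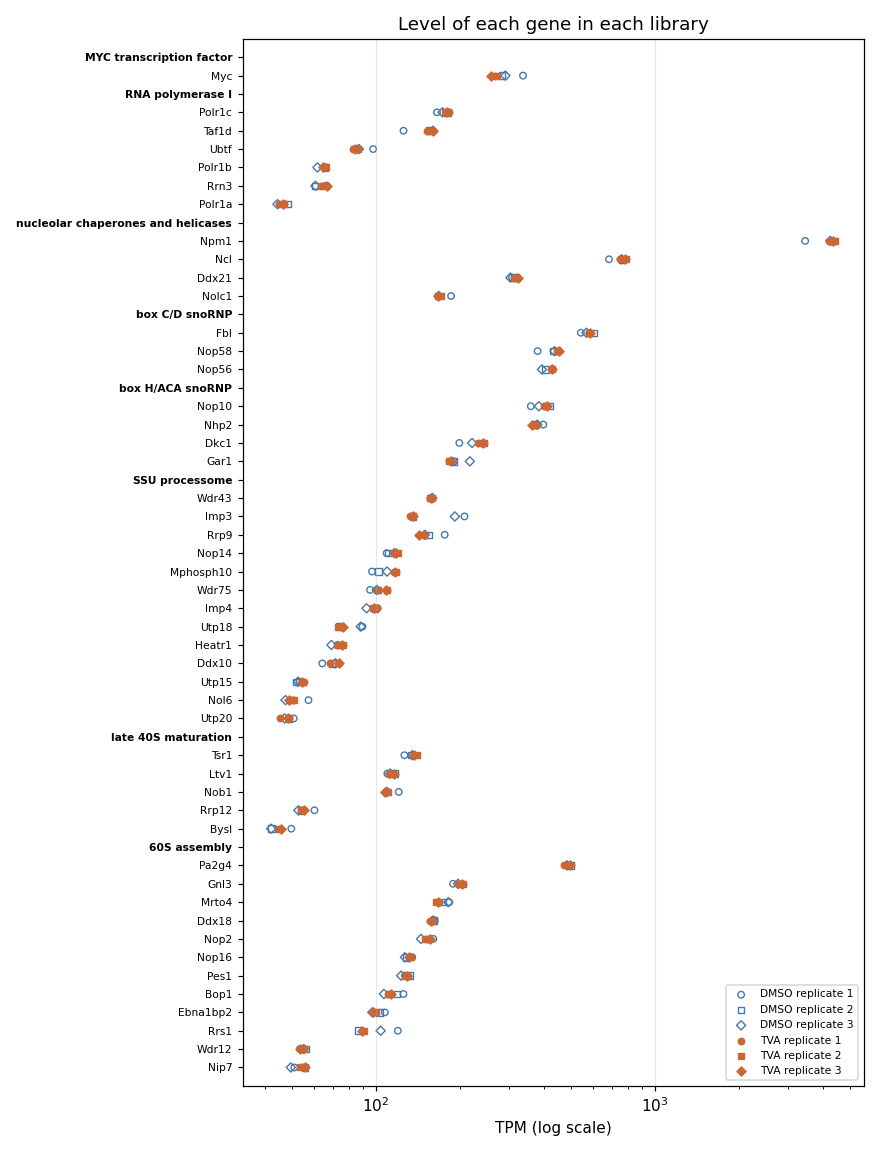
TPM (log scale) of each of the 48 genes in each of the 6 libraries, grouped by step of ribosome assembly; open blue symbols are DMSO and filled orange symbols TVA libraries. Npm1 stands above all other members, and for most genes the TVA symbols fall among or close beside the DMSO symbols.

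The machinery was abundant in every library. Mean levels over the 6 libraries ran from 44.9 TPM for Bysl to 4167 TPM for Npm1, with a median of 129.5 TPM against 21.4 TPM over all genes tested. Npm1, which encodes the nucleolar chaperone nucleophosmin, ranked 38 of all 24589 genes, and Myc itself ranked 476 with a mean of 284 TPM. Together the members took 1.17%, 1.27% and 1.25% of all transcripts in DMSO replicates 1, 2 and 3 and 1.24%, 1.28% and 1.27% in TVA replicates 1, 2 and 3. The low value of DMSO replicate 1 came from Npm1, since without that gene the sums were 8264, 8325 and 8273 TPM under DMSO and 8228, 8367 and 8347 TPM under TVA. The groups overlapped in both sums.

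None of the 48 genes passed the threshold (limma, adjusted p under 0.05), where 8.51% of all genes tested did. At an unadjusted p under 0.05 there were 5 members (Myc, Mrto4, Imp3, Mphosph10 and Wdr75), or 10.4% of them, against 31.8% of all genes. The median log2 change of the members was 0.02, with 27 positive and 21 negative, and that of all genes tested was 0.04; median-of-ratios scaling turned the sign of the first, to -0.02 against 0.0043 for all genes. Single members ranged from -0.38 (Imp3) to 0.18 (Mphosph10). The groups were separate (no overlap of values) for 10 members (20.8%), against 38.6% of all genes. Of these, 5 were higher with TVA (Mphosph10, Nop58, Wdr75, Tsr1 and Utp15), where 27.3% of all genes were, and 5 were lower (Myc, Mrto4, Gar1, Rrp9 and Ddx18), where 11.2% were.

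The intervals of these changes were narrow. The 95% interval of the fitted change lay inside a 1.5-fold change in either direction for 47 of 48 members, all but Imp3, and inside a 1.2-fold change for 39. Standard errors had a median of 0.046 on the log2 scale, against 0.059 over all genes tested. The lowest bound of any interval was 0.614-fold (Imp3) and the highest 1.24-fold (Npm1).

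**Figure D2:**
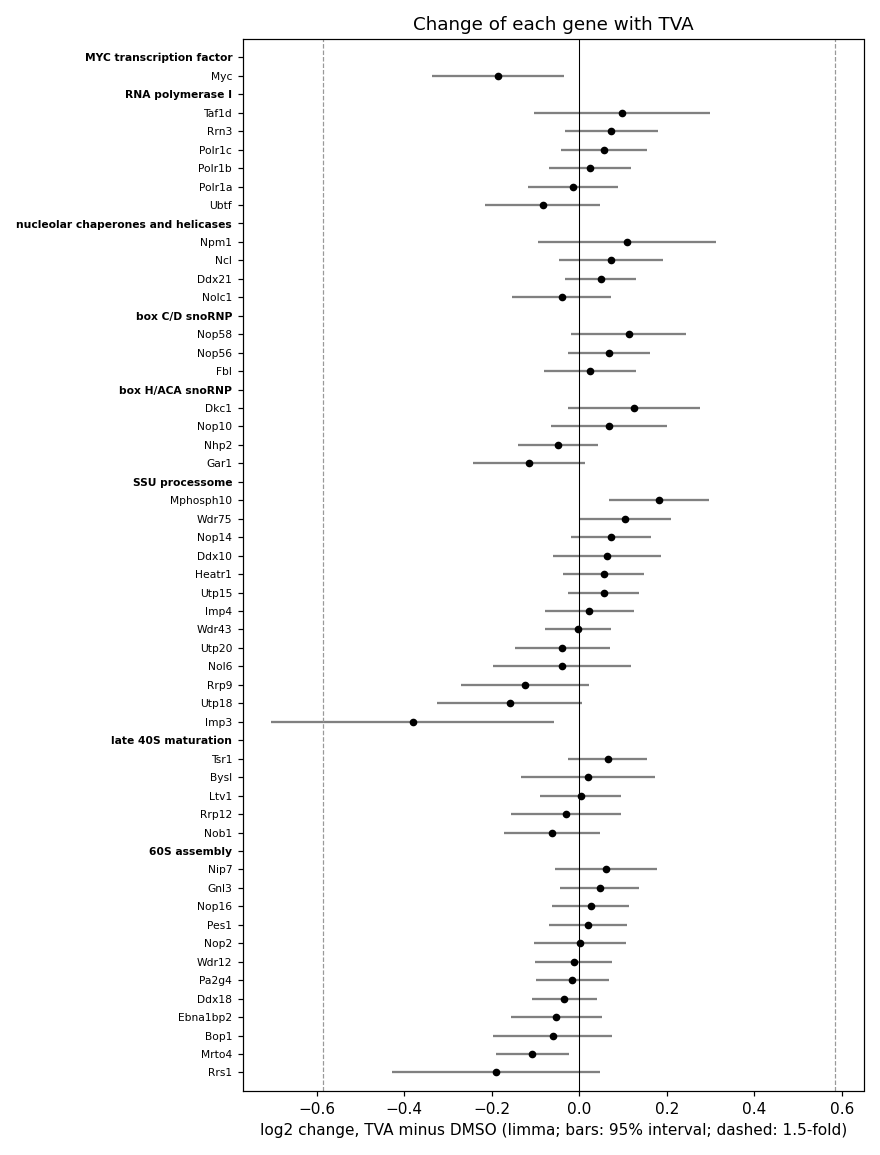
Fitted log2 change (TVA minus DMSO) of each of the 48 genes with its 95% interval, ordered within each step; dashed lines mark a 1.5-fold change. The points gather around 0, only the interval of Imp3 extends beyond a dashed line, and the intervals of 5 genes exclude 0 before adjustment.

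Myc, which spans chr15:61985341-61990361 (GRCm38.p6) with 3 exons, encodes the transcription factor at the head of the programme. Its levels were 336, 283 and 291 TPM in DMSO replicates 1, 2 and 3, against 267, 271 and 259 TPM in TVA replicates 1, 2 and 3. All TVA libraries were below all DMSO libraries. The log2 change was -0.19 (SE 0.065, 95% interval -0.34 to -0.03), which did not pass after adjustment (limma adjusted p 0.105). Without DMSO replicate 2 it was -0.23 and passed (limma adjusted p 0.035), without DMSO replicate 1 it was -0.11 (limma adjusted p 0.082), and under the other alternatives the adjusted p ran from 0.055 to 0.29.

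Of 16 listed genes of the MYC network (partners, antagonists, cofactors and the other family members), 14 were tested and none passed. Their median log2 change was -0.02, with 6 positive and 8 negative. Max, the obligate partner of MYC, had 109, 113 and 108 TPM under DMSO and 113, 113 and 113 TPM under TVA (log2 change 0.04, limma adjusted p 0.44), with the lowest TVA value (112.71 TPM) just above the highest DMSO value (112.7 TPM). The groups did not overlap for 6 of the 14 (42.9%), near the 38.6% of all genes tested. Of these, 3 were higher with TVA (Max, Mlx and Fbxw7) and 3 lower (Mxd1, Mnt and Zbtb17). Apart from Max, these were chosen after their values were seen. Mlx, a MAX-like partner protein, had 53.3, 52.6 and 51.3 TPM under DMSO and 54.1, 56.5 and 57.5 TPM under TVA (log2 change 0.10, limma adjusted p 0.15). Fbxw7, which encodes a ubiquitin ligase subunit that targets MYC, had 17.8, 18.6 and 18.6 TPM under DMSO and 19.9, 19.4 and 19.5 TPM under TVA (log2 change 0.09, limma adjusted p 0.18). Mxd1 and Mnt encode MAX-binding repressors and Zbtb17 the MYC-binding factor MIZ1. Mxd1 had 12.5, 11.8 and 11.7 TPM under DMSO and 10.1, 10.8 and 9.81 TPM under TVA (log2 change -0.21, limma adjusted p 0.054). Mnt had 15.2, 14.0 and 13.9 TPM under DMSO and 12.5, 12.1 and 12.7 TPM under TVA (log2 change -0.19, limma adjusted p 0.056). Zbtb17 had 30.7, 26.9 and 24.8 TPM under DMSO and 23.7, 22.7 and 23.2 TPM under TVA (log2 change -0.23, limma adjusted p 0.084). Mycn and Mycl, the other family members, stayed under 1 TPM in each library and were not tested.

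RNA polymerase I and its initiation factors held 6 members, with no call and with overlapping groups for each of them. Polr1a and Polr1b, the catalytic core subunits, had log2 changes of -0.01 and 0.02. Polr1c, a subunit shared with RNA polymerase III, had the highest level of the group, at 165, 181 and 173 TPM under DMSO and 183, 176 and 180 TPM under TVA (log2 change 0.06, limma adjusted p 0.39). Rrn3, the factor that makes the polymerase competent to start, had 65.7, 60.4 and 60.7 TPM under DMSO and 63.6, 66.3 and 66.8 TPM under TVA. Ubtf, which binds along the ribosomal genes, and Taf1d, a subunit of the promoter selectivity factor, differed mainly in DMSO replicate 1. That library had 97.6 TPM of Ubtf where the other 5 had 82.9 to 86.8 TPM, and 125 TPM of Taf1d where they had 152 to 160 TPM.

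Among the nucleolar chaperones and helicases, Npm1 had 3445, 4379 and 4236 TPM under DMSO and 4179, 4416 and 4345 TPM under TVA. DMSO replicate 1 was again alone, and the other DMSO libraries lay in the TVA range. The log2 change was 0.11 (SE 0.088, limma adjusted p 0.41), 0.0017 without DMSO replicate 1 and 0.17 without DMSO replicate 2. Npm1 has near-identical processed copies in the genome, and reads could be split among them, so its level is uncertain. Ncl, the rRNA chaperone nucleolin, showed the same pattern, at 683, 759 and 757 TPM under DMSO and 748, 788 and 777 TPM under TVA. Ddx21, a helicase that links polymerase I and II transcription, and Nolc1, a snoRNP chaperone, had log2 changes of 0.05 and -0.04.

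The snoRNPs come in a box C/D class, whose fibrillarin (Fbl) methylates rRNA, and a box H/ACA class, whose dyskerin (Dkc1) makes pseudouridine. Fbl had 541, 602 and 567 TPM under DMSO and 577, 581 and 582 TPM under TVA, so the TVA libraries lay within the DMSO range. Nop56 and Nop58, the paired scaffold proteins of that class, had positive changes of 0.07 and 0.11. For Nop58 the TVA values (446, 447 and 453 TPM) stood above the DMSO values (379, 432 and 436 TPM), with an adjusted p of 0.21 in limma, and without DMSO replicate 1 the change was 0.05. Dkc1 had 199, 239 and 221 TPM under DMSO and 232, 243 and 242 TPM under TVA (log2 change 0.13, limma adjusted p 0.22). Its groups overlapped through DMSO replicate 2, without which the change was 0.19 (limma adjusted p 0.041), whereas without DMSO replicate 1 it was 0.06 (limma adjusted p 0.39). The other proteins of the dyskerin complex were mixed in sign, since Gar1 had a log2 change of -0.11, Nhp2 of -0.05 and Nop10 of 0.07. Nop10, the most abundant of them, had 358, 419 and 383 TPM under DMSO and 398, 406 and 409 TPM under TVA, within the DMSO range. Its change was 0.01 without DMSO replicate 1 and 0.13 without DMSO replicate 2. That of Gar1 was -0.15 without DMSO replicate 2 and -0.05 without DMSO replicate 3.

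The widest range of changes lay in the small subunit (SSU) processome, the large particle that forms on nascent pre-rRNA. Its 13 members had log2 changes from -0.38 to 0.18, with Imp3 at the low end. Mphosph10, Imp3 and Imp4 encode proteins that form a complex with the U3 snoRNP, and their changes differed. Mphosph10 had 96.7, 102 and 109 TPM under DMSO and 116, 117 and 117 TPM under TVA, so that all TVA libraries were higher. Its log2 change of 0.18 (SE 0.049, limma adjusted p 0.059) was the nearest to the threshold among the members. Without DMSO replicate 3 it passed, at 0.23 (limma adjusted p 0.046), where 2.71% of all genes did. It was 0.14 without DMSO replicate 1 (limma adjusted p 0.064) and 0.18 without DMSO replicate 2 (limma adjusted p 0.056). Imp4 had 101, 99.1 and 92.4 TPM under DMSO and 101, 97.9 and 98.6 TPM under TVA, a log2 change of 0.02.

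Imp3, at chr9:56937500-56938398 (GRCm38.p6), stood at 207, 135 and 192 TPM in DMSO replicates 1, 2 and 3, against 132, 136 and 135 TPM under TVA. DMSO replicate 2 sat in the TVA range and the other DMSO libraries stood far above it. The log2 change was -0.38 (SE 0.14, limma adjusted p 0.11). Without DMSO replicate 2 it was -0.57 (SE 0.045, limma adjusted p 2.8e-04), the most marked change of any member in that fit. Without DMSO replicate 1 it was -0.26 (limma adjusted p 0.19), and without DMSO replicate 3 it was -0.32 (limma adjusted p 0.25). Utp18, a WD-repeat protein of the same particle, followed the order of Imp3, with 89.3, 74.1 and 88.1 TPM under DMSO and 75.1, 73.2 and 75.9 TPM under TVA. Its log2 change was -0.16 (limma adjusted p 0.17), and -0.24 without DMSO replicate 2 (limma adjusted p 0.0072). It was -0.11 without DMSO replicate 1 (limma adjusted p 0.29) and -0.12 without DMSO replicate 3 (limma adjusted p 0.34). Rrp9, a U3-specific protein, had 176, 154 and 150 TPM under DMSO and 149, 148 and 142 TPM under TVA, a log2 change of -0.12 (limma adjusted p 0.21) that was -0.05 without DMSO replicate 1.

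Other scaffold proteins of the particle differed by less. Wdr75, which joins the earliest subcomplex on the pre-rRNA, had 95.2, 101 and 101 TPM under DMSO and 102, 109 and 109 TPM under TVA (log2 change 0.10, limma adjusted p 0.16). Wdr43, of the same subcomplex, had the highest level of the group and was almost level between the treatments, at 158, 157 and 159 TPM under DMSO and 156, 159 and 157 TPM under TVA. The change of Wdr43 was -0.0024, with a 95% interval from -0.078 to 0.073. Utp15, Heatr1 and Nop14 had changes of 0.06, 0.06 and 0.07, and Nol6 and Utp20 of -0.04 each.

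The 5 factors of late 40S maturation ran from -0.06 (Nob1, the endonuclease that makes the final cut of the small subunit rRNA) to 0.07 (Tsr1, a GTPase-like factor). Tsr1 had 126, 134 and 135 TPM under DMSO and 137, 140 and 137 TPM under TVA, higher in all 3 TVA libraries (limma adjusted p 0.28). Bysl, Ltv1 and Rrp12 had changes of 0.02, 0.0034 and -0.03. Intervals of all 5 lay inside a 1.2-fold change.

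For the large subunit, 12 members had log2 changes from -0.19 to 0.06. The PeBoW complex, which is needed to process the rRNA of the large subunit, consists of Pes1, Bop1 and Wdr12. Their mean levels were 128, 114 and 54.6 TPM, and their changes were 0.02, -0.06 and -0.01. Pa2g4, a growth-regulated nucleolar protein and the most abundant of the group, had 485, 499 and 483 TPM under DMSO and 472, 486 and 494 TPM under TVA. Gnl3, which encodes nucleostemin, had a change of 0.05 and the rRNA methyltransferase gene Nop2 one of 0.0024.

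The most negative changes of the large subunit group were those of Rrs1 and Mrto4. Rrs1, which helps to bring the 5S RNP into the particle, had 120, 86.4 and 104 TPM under DMSO and 89.5, 90.3 and 89.3 TPM under TVA (log2 change -0.19, limma adjusted p 0.24). Its DMSO libraries spanned both sides of the TVA libraries, and without DMSO replicate 2 the change was -0.31 (limma adjusted p 0.013), whereas without DMSO replicate 1 it was -0.08 (limma adjusted p 0.47). Mrto4, a placeholder for the ribosomal stalk protein, had 183, 174 and 181 TPM under DMSO and 168, 164 and 167 TPM under TVA. All TVA libraries were lower, and the log2 change was -0.11 (SE 0.036, limma adjusted p 0.097). Without DMSO replicate 2 it was -0.13 (limma adjusted p 0.042), and without DMSO replicate 3 it was -0.10 (limma adjusted p 0.17).

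**Figure D3:**
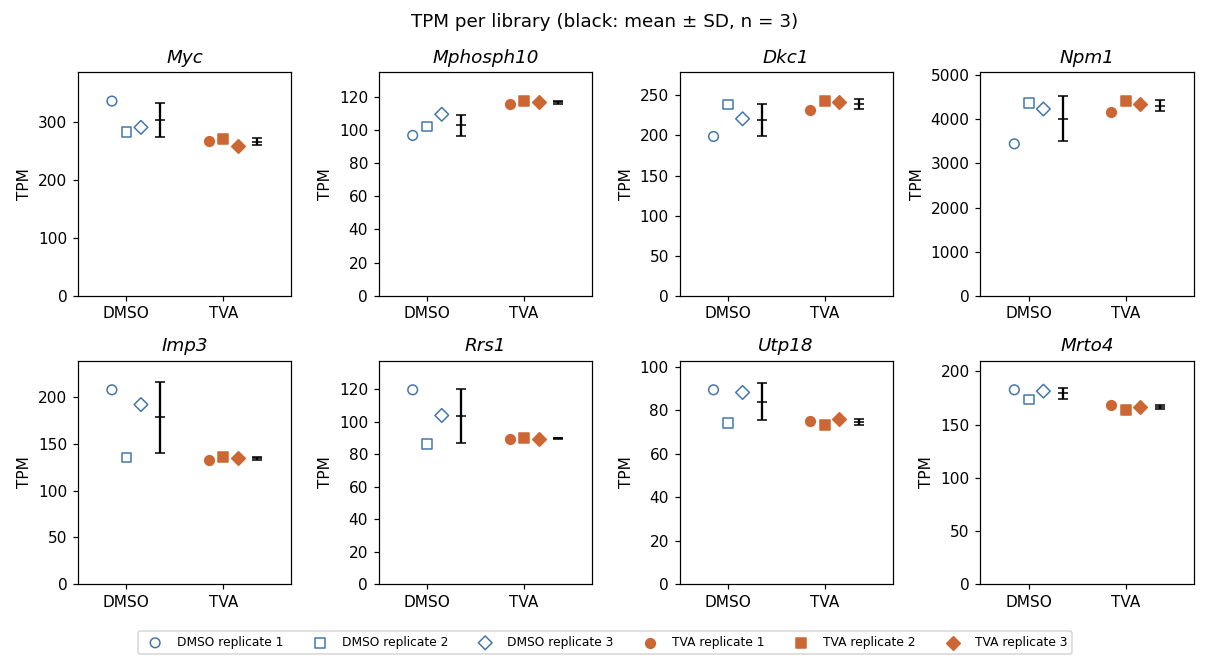
TPM of 8 genes in each library (linear axes from 0), with mean ± SD of 3 libraries in black. Myc and Mrto4 are lower and Mphosph10 higher in all TVA libraries, Imp3, Rrs1 and Utp18 have DMSO replicate 2 at the TVA level, and Npm1 and Dkc1 are lowest in DMSO replicate 1.

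In all, 6 members passed without DMSO replicate 2 (12.5%), where 20.6% of all genes did. Myc, Utp18, Imp3, Rrs1 and Mrto4 were lower and Dkc1 was higher. The share of members was below that of all genes in this fit too.

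The DMSO libraries varied more than the TVA libraries. The DMSO range was wider than the TVA range for 43 of 48 members, against 73.2% of all genes tested. In 34 members DMSO replicate 2 was nearer to the TVA mean than to the mean of the other DMSO libraries, where 47.6% of all genes showed this. The spread moved with base composition. Median GC content of the transcripts was 50.2% for the members and 50.4% for all genes tested. In the 24 members of lower GC (38.9% to 50.1%), the median deviation from the 6-library mean was -0.058 in DMSO replicate 1, 0.0007 in DMSO replicate 2, -0.0042 in DMSO replicate 3, -0.0062 in TVA replicate 1 and 0.04 to 0.05 in TVA replicates 2 and 3. In the 24 of higher GC (50.2% to 58.2%) it was 0.088 in DMSO replicate 1, 5.9e-05 in DMSO replicate 2, -0.038 in DMSO replicate 3 and -0.033 to -0.0076 in the TVA libraries, so DMSO replicate 3 lay below all of these.

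The change with TVA tracked the same property. Across the 48 members, which share the 6 libraries, log2 change and GC content had a Spearman correlation of -0.61, against -0.40 across all genes tested. The difference between DMSO replicates 1 and 3 had one of 0.70 with GC content among the members; both are DMSO libraries. The part of GC content in the changes with TVA was not tested. The lower GC group had a median change of 0.06 (18 of 24 positive) and the higher GC group one of -0.04 (15 of 24 negative). After a GC correction within each library the medians were -0.00082 and -0.0069, and no member passed. The correction is built to take out a trend with GC content, so medians near each other follow from its design. Mphosph10 (GC 41.3%) then had a change of 0.09 and Dkc1 (45.2%) one of 0.06. Nop58, Wdr75 and Npm1 were at 0.03, 0.03 and 0.02, and Rrp9 was at -0.04. Imp3 (55.7%) had -0.34, Rrs1 (54.2%) -0.17 and Myc (55.6%) -0.15. Utp18 (42.4%) went from -0.16 to -0.24, and Wdr43 (44.3%) from -0.0024 to -0.073 (limma adjusted p 0.12).

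**Figure D4:**
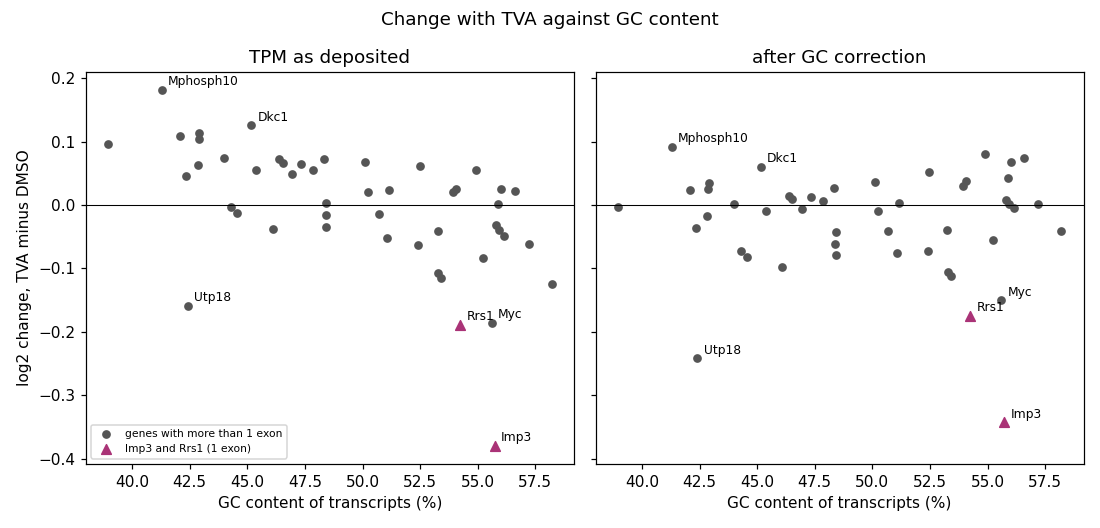
Log2 change (TVA minus DMSO) of the 48 genes against GC content of their transcripts, from TPM as deposited (left) and after the GC correction (right). The downward slope on the left is absent on the right, since the correction takes out a trend with GC content by design. On the right, Imp3, Utp18, Rrs1 and Myc remain the lowest points.

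Imp3 and Rrs1 shared a gene structure that the other 46 members lack: their annotated transcripts (GENCODE vM21) consist of 1 exon. Both had DMSO replicates 1 and 3 above all other libraries, but so did 5 of the 46 members with more exons (Myc, Mrto4, Nhp2, Ubtf and Utp18) and 13.7% of all genes tested. The medians over the 180 protein-coding genes tested with 1 exon had the same order, with a deviation from the 6-library mean of 0.18 and 0.09 in DMSO replicates 1 and 3, -0.12 in DMSO replicate 2 and -0.081 to -0.035 with TVA. In 10078 protein-coding genes with more exons the medians ran from -0.043 to 0.029. Leaving out histone genes kept the order in the 131 other genes with 1 exon (0.15, -0.08 and 0.06 in DMSO replicates 1, 2 and 3). The part of exon number in the values of Imp3 and Rrs1 was not tested.

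**Figure D5:**
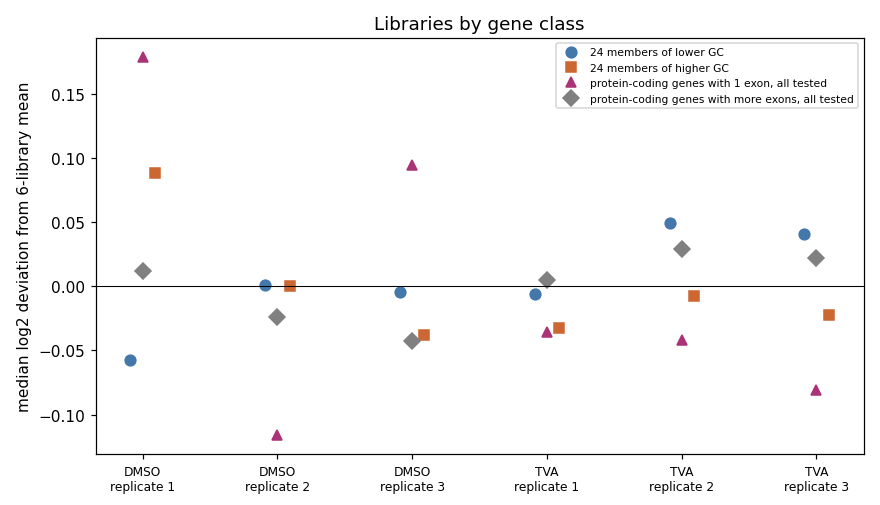
Median log2 deviation from the 6-library mean, per library, for the 24 members of lower GC, the 24 of higher GC, the 180 tested protein-coding genes with 1 exon and the 10078 with more. The classes spread most in DMSO replicate 1, and genes with 1 exon are high in DMSO replicates 1 and 3 and low in DMSO replicate 2.

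Other genes of the pathway were read in the same fit. Of 181 further genes in 7 lists (the MYC network, RNA polymerase I, snoRNP, small and large subunit factors, the exosome that trims rRNA, and metabolic and growth genes under MYC control), 179 were tested and 1 passed. That gene was Znhit3, a snoRNP assembly factor, with 44.0, 45.0 and 41.8 TPM under DMSO and 52.9, 48.8 and 48.7 TPM under TVA (log2 change 0.20, SE 0.049, limma adjusted p 0.0496). It kept the call with a pseudocount of 0.1, after the GC correction and without DMSO replicate 2 and lost it under the other 11 alternatives, with adjusted p-values from 0.028 to 0.16 in limma over all of them. Without DMSO replicate 2, 32 of the 179 passed (17.9%, against 20.6% of all genes), 12 higher and 20 lower. At an unadjusted p under 0.05 there were 47 (26.3%, against 31.8% of all genes), and the groups did not overlap for 64 (35.8%, against 38.6%). Their median log2 change was 0.03. List medians ran from -0.02 (MYC network) to 0.06 (exosome, with 9 of 14 positive, and RNA polymerase I factors, with 11 of 15 positive). The 31 growth and metabolism genes under MYC control, such as Odc1 and Cad, had a median of 0.01 with 17 positive and 14 negative.

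The 9 members with an E-box in the window spanned a range inside that of the members without one. Their log2 changes ran from -0.16 (Utp18) to 0.07 (Rrn3) with a median of 0.0034, and those of the 32 members whose window lacked the motif ran from -0.38 to 0.18 with a median of 0.04.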

How the data were processed

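Transcripts were measured by RNA-seq in 6 libraries (3 TVA, 3 DMSO), prepared with a SMARTER mRNA-Seq kit per the labels. The authors deposited 1 table of TPM per gene symbol, rounded to 2 decimals; the submitters' processing notes name STAR, RSEM and mm10, and versions and annotation are not given in the sources used here. TPM keep no depth, so the precision given is that of the replicates. Groups came from sample titles and columns were matched to libraries by their descriptions.

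Genes with at least 1 TPM in at least 3 libraries (10866) were compared as log2(TPM + 1), which understates changes of low genes, with limma 3.58.1 in R 4.3.3 (variance trend, two-sided, Benjamini-Hochberg over all genes tested, threshold 0.05). Fits were tested on simulated data. GC content and exon number came from GENCODE vM21 (GRCm38; GC found for 99.4% of genes tested), E-boxes and positions from RefSeq GRCm38.p6. Figures used matplotlib 3.10.9.

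The members and the lists of other genes were chosen with earlier results of these data known. Myc, members past the threshold, the 5 with the largest positive and the 5 with the largest negative change and the most abundant of each of 8 roles were named, and of the other pathway genes those past the threshold; further genes are given for their role. Alternatives were a pseudocount of 0.1, other filters (any TPM above 0, a 10 TPM mean), quantile and median-of-ratios scaling, no variance trend, a replicate block, a loess GC correction (span 0.5) within each library, a 1.5-fold minimum and the omission of each library. Trac, among the markers, was not found in the table by symbol, and 1 marker list is not reported here.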

Additional observations from a re-analysis of the deposited data

How the results depend on the processing

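The count of 0 members past the threshold held under each alternative that used all 6 libraries and ran from 0 to 6 with a library left out (6 without DMSO replicate 2, 1 without DMSO replicate 3). The median change of the members, 0.02, was -0.00076 under quantile normalization, -0.017 under median-of-ratios scaling, -0.0037 after GC correction and -0.0052 to 0.022 with a library left out. Myc ran from -0.23 to -0.11 with a library left out and passed without DMSO replicate 2 alone. The count over all genes, 925, was 494 with all genes above 0 TPM, 608 with at least 10 TPM, 218 with a replicate block, 88 with a 1.5-fold minimum and 102 to 2242 with a library left out; its share of higher calls, 62.1%, was 46.1% under quantile normalization and 35.4% under median-of-ratios scaling. Other pathway genes past the threshold, 1 in the report, numbered 0 with all genes above 0 TPM, at least 10 TPM, no variance trend, a replicate block or a 1.5-fold minimum, 2 under quantile normalization, 4 under median-of-ratios scaling, 6 after GC correction and 0 to 32 with a library left out.

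Deviations of same-numbered libraries from their group means correlated at 0.16, 0.035 and -0.077, which does not show pairing, and the replicate block changed no member's call. Among the 17 named genes, signs turned for Fbl, Wdr43 and Pa2g4. Fbl was -0.0126 after median-of-ratios scaling and -0.0116 to 0.065 with a library left out, the lowest without DMSO replicate 1. Wdr43 was -0.0099 to 0.0045 with a library left out, positive without DMSO replicate 3, at 0.0037, or TVA replicate 1. Pa2g4 was -0.031 to 0.0022, positive without TVA replicate 1. Other members turned too, such as Polr1a (-0.015, and 0.012 without DMSO replicate 2) and Gnl3 (0.046, and -0.036 after GC correction). Of 238 values for 17 named genes under alternatives, 216 kept direction and side of the threshold, 6 passed it newly and 11, all Znhit3, lost it. What caused these shifts was not tested. Depth is unknown, and what it limits cannot be stated.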

Other observations

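The exosome, the 3′ exonuclease complex that trims rRNA precursors, held subunits with opposite signs. Exosc7 had 127, 140 and 121 TPM under DMSO and 144, 146 and 150 TPM under TVA, the largest positive change of that list (0.18), and Exosc6 had 65.6, 35.6 and 54.6 TPM under DMSO and 34.8, 38.0 and 33.9 TPM under TVA, the largest negative one (-0.49). Neither passed the threshold, and both were chosen after their values were seen. Exosc6 is 1 of the 2 genes of the wider lists with 1 exon, the other being Utp3. Its DMSO replicates 1 and 3 stood above all other libraries, as those of Imp3 and Rrs1 did. The same order held in 29 of the 179 tested genes of the wider lists (16.2%), against 13.7% of all genes tested. Exosc3 and Exosc4, which are not among the genes with 1 exon, had it too. Utp3 did not have this order, with 108, 104 and 115 TPM under DMSO and 109, 114 and 109 TPM under TVA (log2 change 0.02).

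Among the 180 protein-coding genes with 1 exon, 8 were lower and 3 higher past the threshold in limma, and without DMSO replicate 2 the counts were 63 lower and 10 higher. Of 10078 protein-coding genes with more exons, 322 were lower and 553 higher, and without DMSO replicate 2 903 were lower and 1159 higher.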
